A study of Mus musculus with 9 samples.

Results

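A panel of 44 genes of mitosis and the spindle was followed through cultured cells of the mouse heart. Each gene was taken by its symbol from a table of 54532 genes, and all 44 were found and had enough reads to be tested in every comparison. By role, 8 genes act in mitotic entry, 5 in the spindle checkpoint, 4 in the chromosomal passenger complex, 7 at the centromere and kinetochore, 10 as mitotic kinesins and spindle assembly factors, 3 in cytokinesis, and 5 in the anaphase-promoting complex or cyclosome (APC/C) pathway with securin and separase. The other 2, Top2a and Mki67, act in chromosome structure.

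Cells enter mitosis when the kinase Cdk1, bound to its cyclins, is activated by phosphatases of the Cdc25 family, with Plk1 and Aurka as helping kinases. The spindle, built by motor proteins and microtubule binding factors, attaches to kinetochores, and the spindle checkpoint holds the APC/C in check until every chromosome is attached. The APC/C then marks cyclin B and securin for destruction, separase opens the chromatids, and centralspindlin with Ect2 and anillin divides the cell. Most of these transcripts are made in G2 and M phase, so that in a culture their level follows the share of cycling cells. In bulk RNA, fewer cells in G2 and M phase and less RNA per such cell cannot be told apart.

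The 3 groups had 3 libraries each. Primary cardiosphere-derived cells of adult C57BL/6 mice are called pECDCs. The labels place them in explants of heart ventricle and the study's methods in epicardium peeled from the heart. They are labelled passage 0, whereas the study's methods give a later passage. The iECDCs are the same kind of cell at passage 30 after lentiviral transfer of hTERT (the reverse transcriptase of human telomerase) and drug selection, and they stand for a single line. For the third group the labels give iECDCs at passage 30 treated for 3 days with SB431542, which blocks the kinase of TGF-β type I receptors. The study's methods instead name an SB431542-treated epithelial clone derived from pECDCs, so what separates the treated libraries from iECDCs beyond the inhibitor cannot be told from these sources. Its discussion describes epithelial clones in pECDC culture after a longer treatment than the 3 days of the labels. Its methods give fewer biological replicates than the 3 libraries per group and its captions give 3, and no source says that the libraries came from separate cultures, so p-values measure the spread between these libraries, which may be technical.

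Promoters of G2 and M phase genes are known to carry the cell cycle genes homology region (CHR), read by the MuvB complex with B-Myb or FoxM1, at a short distance from CCAAT boxes, read by NF-Y. Promoter windows from RefSeq on GRCm38.p6, with 250 bases before and 50 after each start, were matched by symbol for 37 of the 44 genes. TTTGAA or TTCGAA, the letters of the CHR on either strand, stood in 29 of the 37 (78.4%, Wilson 95% interval 62.8 to 88.6%) and in 21.7% of 27025 genes with a window. CCAAT on either strand stood in 28 of 37 (75.7%), against 41.1% of all genes, and both motifs in 25 (67.6%), against 8.61%. The E2F letters TTTCCCGC, TTTGGCGC, TTTCGCGC or TTTGCCGC stood in 1 of 37 (2.70%), against 2.60% of all genes. Genes whose RNA differed with treatment and genes whose RNA did not pass the test both held these letters, as the following 100-base stretches before the start show, in which capitals mark CHR and CCAAT letters on either strand. Cdk1 is at chr10:69352939-69353038 (minus strand), Ube2c at chr2:164769798-164769897 (plus strand), Aurka at chr2:172370571-172370670 (minus strand), Cdc25b at chr2:131186848-131186947 (plus strand), Kif11 at chr19:37376282-37376381 (plus strand) and Top2a at chr11:99024190-99024289 (minus strand), each ending before the first transcribed base in both RefSeq and the deposited coordinates.
Cdk1: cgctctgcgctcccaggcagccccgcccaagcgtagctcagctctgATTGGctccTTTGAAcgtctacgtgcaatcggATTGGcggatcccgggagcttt
Ube2c: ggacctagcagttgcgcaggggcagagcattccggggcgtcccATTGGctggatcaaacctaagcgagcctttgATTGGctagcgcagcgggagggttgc
Aurka: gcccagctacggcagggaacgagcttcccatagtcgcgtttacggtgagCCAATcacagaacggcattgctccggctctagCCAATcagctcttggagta
Cdc25b: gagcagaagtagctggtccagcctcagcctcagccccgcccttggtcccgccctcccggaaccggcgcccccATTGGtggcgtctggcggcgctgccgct
Kif11: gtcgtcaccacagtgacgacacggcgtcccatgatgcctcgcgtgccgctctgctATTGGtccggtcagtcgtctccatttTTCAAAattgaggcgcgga
Top2a: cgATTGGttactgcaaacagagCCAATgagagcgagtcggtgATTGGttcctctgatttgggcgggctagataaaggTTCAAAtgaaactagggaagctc
In Cdk1, which was lower in treated cells, and in Kif11 and Top2a, which did not pass the test, both kinds of motif lay within these bases. Cdk1 held TTTGAA again outside them, at position -15, nearer the RefSeq start. Ube2c and Aurka, also lower, and Cdc25b, which was higher, held CCAAT here, and their CHR letters lay nearer the RefSeq start, at position -29 in Ube2c and at bases 33 and 8 after the start in Aurka and Cdc25b. All 8 genes that passed the test between treated cells and iECDCs, 6 lower and 2 higher, held both motifs in the window, as did 17 of the 29 that did not pass. A match of letters is a description of the sequence and not a bound site.

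Reads counted to genes came to 16568306 to 23951392 per library, and the lowest count of any of the 44 genes in any library was 249. Among the 9 libraries, 2 stood apart from the rest of their group. Per gene, iECDC replicate 3 differed from iECDC replicates 1 and 2 by a chi-square of 24.9 to 30.8 per degree of freedom, whereas those replicates differed from each other by 4.61. Treated replicate 2 differed from treated replicates 1 and 3 by 70.3 to 71.5, whereas those differed by 3.79, and pECDC libraries differed by 2.70 to 4.23. The same 2 libraries stood apart in TGF-β responsive genes, of which 5 of 8 fell and 1, Tgfbi, rose in treated cells. The median position of the 8 genes, as log2(FPKM) minus the gene's mean over 9 libraries, was 0.675, 0.715 and 1.499 in iECDC replicates 1, 2 and 3. Of 5 markers of cardiosphere-derived cells, 1 was higher and 2 were lower in treated cells than in iECDCs. Ly6a was higher, at 7.11, 6.51 and 5.08 FPKM in iECDCs and 35.3, 16.2 and 37.02 in treated cells. Cd44 was lower, with a log2 fold change of -1.66 ± 0.28 (SE), adjusted p = 0.00489, as was Itgb1, at -0.75 ± 0.12 (SE), adjusted p = 0.00385. Eng and Thy1 did not pass and were above 60 FPKM in every library. None of 6 endothelial, 2 of 7 cardiomyocyte and 3 of 6 haematopoietic markers had enough reads to be tested, with Pecam1, Ptprc, Myh6 and Actn2 below 0.03 FPKM in every library. Of the tested ones, Tnnt2, a cardiomyocyte marker, was lower in treated cells than in iECDCs (-3.07 ± 0.48 (SE), adjusted p = 0.00378), and Cd14, a myeloid marker, was higher (0.80 ± 0.19 (SE), adjusted p = 0.0154), while Tnni3, Csf1r and Cd68 did not pass.

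Per length, the 44 transcripts spanned a range from abundant to modest. Cdc20, the activator of the APC/C at anaphase, had the highest mean level in each group, at 110.4 ± 4.05 FPKM in pECDCs, 145 ± 21.1 in iECDCs and 108 ± 26.03 in treated cells (SD, n = 3). Plk1 was next in pECDCs (68.1 ± 1.69) and iECDCs (76.2 ± 6.16), and Ccnb2, a B-type cyclin, was next in treated cells (61.6 ± 10.1). In treated cells the SDs of Ccnb2 and Plk1 (56.4 ± 7.77) overlapped, so that their order was not resolved. The lowest levels were those of Cenpf, Ndc80 and Ttk, with group means of 5.41 to 6.90 FPKM. Together the 44 genes took 0.486 to 0.504% of counts in pECDCs and 0.540, 0.544 and 0.575% in iECDC replicates 1, 2 and 3. In treated replicates 1, 2 and 3 they took 0.479, 0.574 and 0.486%, so that treated replicate 2 lay at the top of the iECDC range and the other 2 treated libraries lay at or below the pECDC range.

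**Figure D1:**
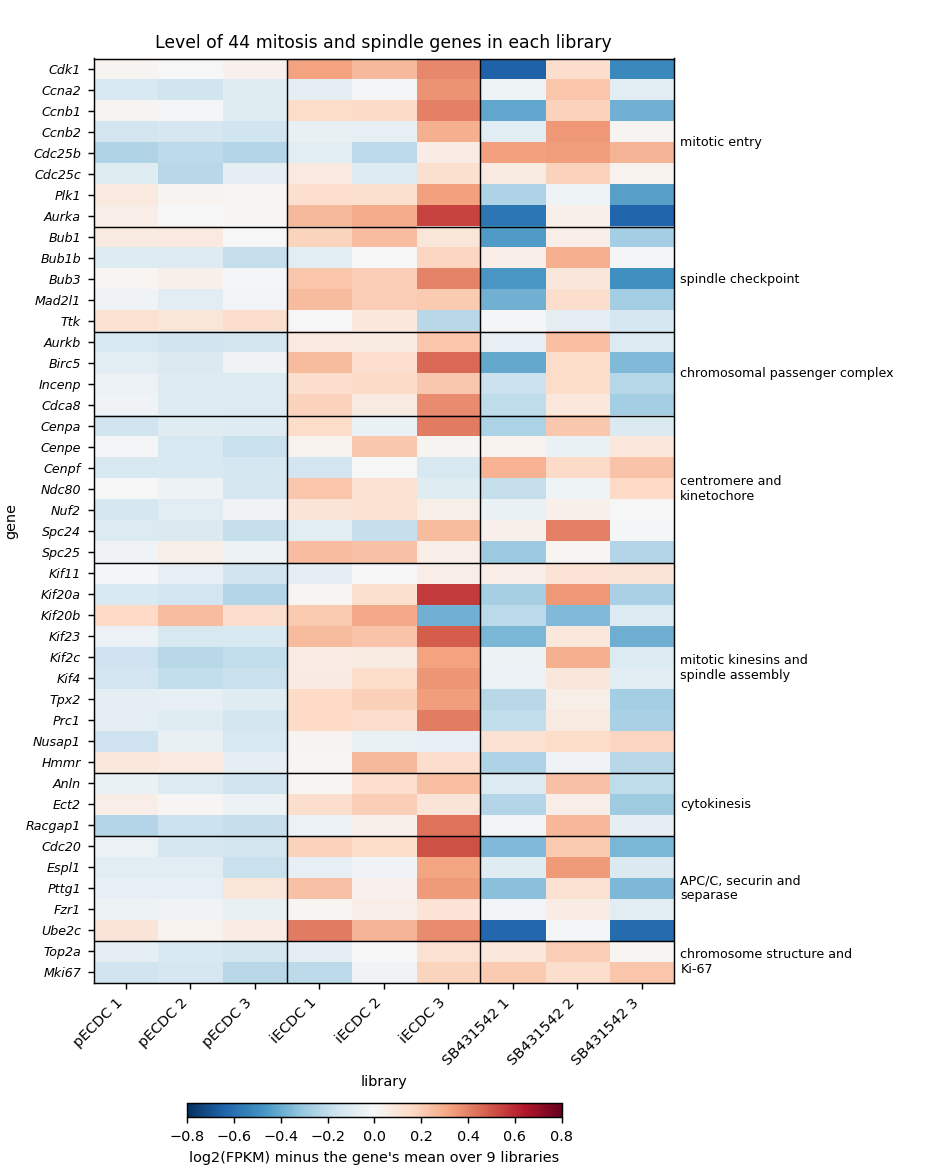
Level of each of the 44 genes (rows, by role) in each of the 9 libraries (columns), as log2(FPKM) minus the gene's mean over the 9 libraries. Blue cells below the mean gather in treated replicates 1 and 3, and red cells in iECDC replicate 3, which was the highest library for 21 of the 44 genes.

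Each library was placed by the median over the 44 genes of log2(FPKM) minus the gene's mean over 9 libraries. The median was -0.06, -0.10 and -0.11 in pECDC replicates 1, 2 and 3, and 0.09, 0.13 and 0.25 in iECDC replicates 1, 2 and 3. In treated replicates 1 and 3 it was -0.18 and -0.12, and in treated replicate 2 it was 0.14. Treated replicate 2 thus lay among the iECDC libraries, and the other treated libraries lay below every pECDC library, replicate 3 by little. By FPKM, iECDC replicate 3 was the highest of the 9 libraries in 21 genes and treated replicate 2 in 9, whereas treated replicates 3 and 1 were the lowest in 13 and 11 genes.

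Treated replicate 2 exceeded both other treated libraries in 37 genes, was below both in 4 and between them in 3. Its log2(FPKM) was above the mean of the other 2 by a median of 0.32, with a range over genes of -0.19 to 0.72. iECDC replicate 3 exceeded both other iECDC libraries in 31 genes, was below both in 9 and between in 4, with a median difference of 0.18. Treated replicates 1 and 3 differed from each other by a median of 0.03, and iECDC replicates 1 and 2 by -0.01. The gene-by-gene offsets of treated replicate 2 and iECDC replicate 3 had Pearson's r = 0.54 and Spearman's rho = 0.47 across the 44 genes, which are not independent replicates and share each library's depth and composition. The position of the treated libraries in the 8 TGF-β responsive genes moved the same way, with medians of -1.57, -0.62 and -1.82 in treated replicates 1, 2 and 3. The part of these differences in the results was not tested.

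Genes of the G1/S transition, which act before the mitotic genes in the cycle, placed the libraries alike, with wider gaps. Their median position over 26 genes was 0.22, 0.16 and 0.33 in iECDC replicates 1, 2 and 3, and -0.31, 0.23 and -0.36 in treated replicates 1, 2 and 3. The pECDC libraries lay between -0.10 and -0.08.

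**Figure D2:**
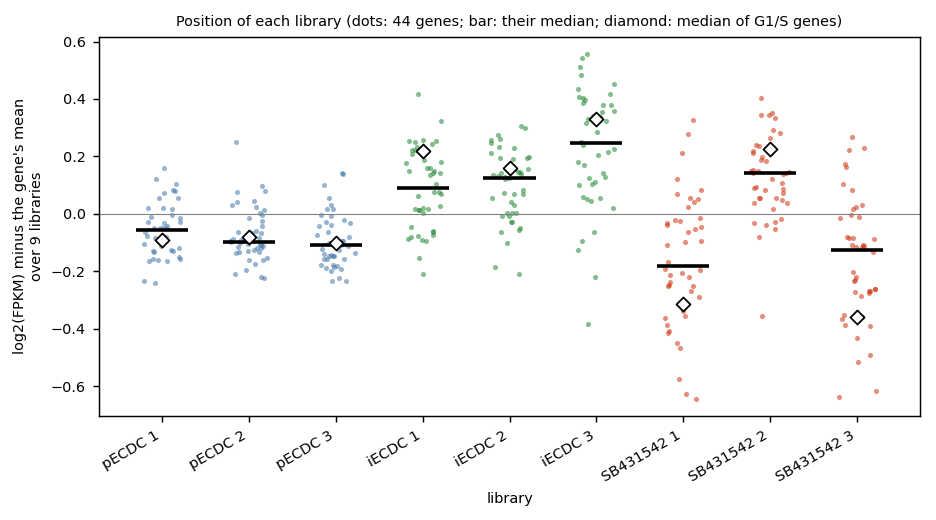
Position of each library, with log2(FPKM) minus the gene's mean over 9 libraries on the vertical axis. Dots are the 44 genes, bars their median and open diamonds the median of 26 G1/S genes. The bar and the diamond of treated replicate 2 lie above 0, with those of the iECDC libraries, and those of treated replicates 1 and 3 lie below 0.

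Treated cells were compared with iECDCs to ask how the mitotic genes stood in the libraries labelled as treated with SB431542. Labels and methods disagree on the treated cells, so a difference here cannot be assigned to the inhibitor alone. Of the 44 genes, 6 were lower in treated cells (Ube2c, Aurka, Cdk1, Bub3, Kif23 and Plk1), 2 were higher (Cdc25b and Cenpf), and 36 did not pass the test. Adjusted p-values here and in what follows are from the quasi-likelihood test of edgeR, adjusted by Benjamini-Hochberg over all genes tested in the comparison, and ranges over alternatives leave out the one that set a minimum on the fold. Among all 13559 genes tested, 30.0% were called, 16.0% higher and 14.0% lower. The 6 of 44 lower genes were 13.6% of the panel, a share near that of all genes, and the 2 higher genes were 4.55%. The median log2 fold change over the panel was -0.20, with 34 values below 0, against 0.00 over all tested genes. In 14 genes all 3 treated FPKM values lay below all 3 iECDC values (background 23.5%), and in 4 genes they lay above (background 23.0%).

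How many genes passed depended on single libraries. Without treated replicate 2, 21 of the 44 genes were lower (47.7%, with 24.8% of all tested genes lower) and 2, again Cdc25b and Cenpf, were higher (background 25.3%, or 50.2% in either direction), and the median was -0.26. With iECDC replicate 3 also left out, an alternative chosen after seeing the data, 24 were lower (background 31.9%) and 4 higher (background 32.6%). Without iECDC replicate 3 alone, 2 genes, Ube2c and Kif20b, were lower (background 11.9%), and 1 gene, Cdc25b, was higher (background 13.5%). Without iECDC replicate 2 only Ube2c passed, as lower (background 5.31% lower and 7.47% higher). No gene passed in edgeR without iECDC replicate 1, treated replicate 1 or treated replicate 3. By the same threshold 7.07 to 8.14% of all genes were then higher and 5.13 to 5.55% lower. At an unadjusted p under 0.05 these fits gave, in that order, 1 higher and 10 lower, 2 higher and 4 lower, and 2 higher and 3 lower genes of the panel. Beside them were 2300 to 2503 higher and 1979 to 2207 lower (14.4 to 15.8%) of all 13774 to 13927 genes tested. The common biological coefficient of variation of the fit was 0.171 with all 6 libraries, 0.108 without treated replicate 2 and 0.0541 without both libraries that stood apart.

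**Figure D3:**
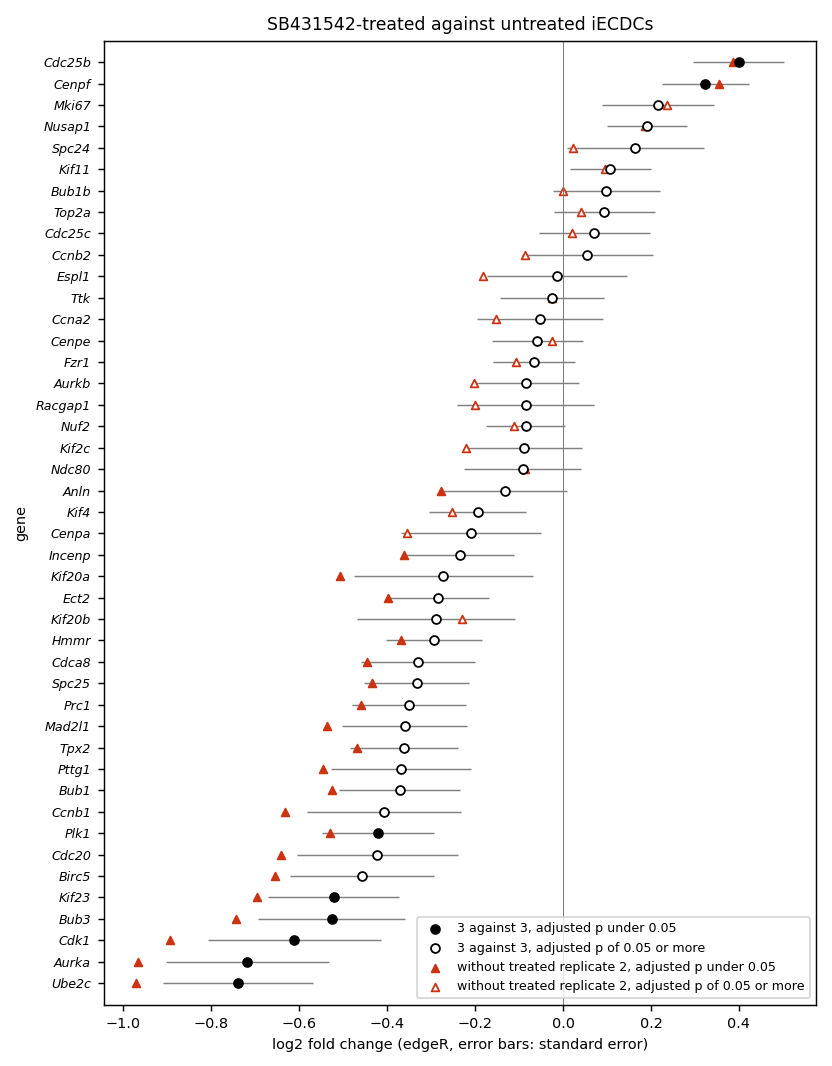
Log2 fold change of treated cells against iECDCs for each of the 44 genes, from edgeR, sorted by size. Circles with error bars (standard error) are 3 against 3 libraries and triangles are without treated replicate 2, filled where the adjusted p was under 0.05. Of the circles 8 are filled and of the triangles 23, and most triangles below 0 lie to the left of their circles.

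Mitotic entry held 4 of the 8 genes that passed, with 3 of its 8 genes lower and 1 higher. Aurka, a kinase of centrosome maturation and spindle assembly (chromosome 2, 172356190 to 172370535), was at 42.2, 40.6 and 41.01 FPKM in pECDCs, 48.5, 49.9 and 59.1 in iECDCs and 27.2, 41.6 and 26.1 in treated cells. Every treated value was below every iECDC value, and treated replicate 2 was above the other 2 treated libraries and within the pECDC range. Aurka had a log2 fold change of -0.72 ± 0.19 (SE), adjusted p = 0.0228 (4.85e-12 to 0.0935 over 16 alternatives, under 0.05 in 11 of them).

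Cdk1, the kinase that drives entry into mitosis (chromosome 10, 69335146 to 69352938), was at 34.4, 33.8 and 34.6 FPKM in pECDCs, 42.4, 40.5 and 44.3 in iECDCs and 21.7, 37.3 and 23.7 in treated cells. Every treated value was below every iECDC value, although treated replicate 2 lay above pECDCs and closer to iECDCs than to the other treated libraries. For Cdk1 the log2 fold change was -0.61 ± 0.20 (SE), adjusted p = 0.0470 (2.74e-12 to 0.163 over 16 alternatives, under 0.05 in 9 of them). Without treated replicate 2 it was -0.89 ± 0.10 (SE), adjusted p = 8.42e-05.

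Plk1, a kinase of mitotic entry and the spindle poles (chromosome 7, 122159439 to 122169873), was at 70.01, 67.2 and 66.97 FPKM in pECDCs, 72.7, 72.5 and 83.3 in iECDCs and 55.8, 64.5 and 49.03 in treated cells. All treated values were below all iECDC and pECDC values. Plk1 had a log2 fold change of -0.42 ± 0.13 (SE), adjusted p = 0.0393 (1.62e-06 to 0.168 over 16 alternatives, under 0.05 in 10 of them).

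Cdc25b, the phosphatase that opens Cdk1 activation at the G2/M boundary (chromosome 2, 131186949 to 131198497), moved the other way. It was at 10.96, 11.2 and 11.02 FPKM in pECDCs, 12.1, 11.2 and 13.5 in iECDCs and 16.3, 16.3 and 15.6 in treated cells, and the treated libraries lay close together and above all others. The log2 fold change against iECDCs was 0.40 ± 0.10 (SE), adjusted p = 0.0228 (4.27e-06 to 0.112 over 16 alternatives, under 0.05 in 11 of them). Treated replicate 2 did not stand apart in this gene.

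The cyclin genes did not pass the test. Ccnb1, coding for cyclin B1, was at 40.7, 39.6 and 37.5 FPKM in pECDCs, 44.4, 44.6 and 52.99 in iECDCs and 30.02, 45.5 and 30.7 in treated cells. Treated replicates 1 and 3 were below every other library, and treated replicate 2 was within the iECDC range. The log2 fold change was -0.41 ± 0.17 (SE), adjusted p = 0.110, and without treated replicate 2 it was -0.63 ± 0.11 (SE), adjusted p = 0.00114. Ccnb2 had a log2 fold change of 0.06 ± 0.15 (SE), adjusted p = 0.795, Ccna2, coding for cyclin A2, of -0.05 ± 0.14 (SE), adjusted p = 0.798, and Cdc25c of 0.07 ± 0.13 (SE), adjusted p = 0.690. Ccna2 overlaps Exosc9 on the opposite strand, and whether counting used the strand is not given in the sources used here.

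Of the 5 spindle checkpoint genes, 1 was lower and 4 did not pass. Bub3, which brings Bub1 and Bub1b to kinetochores (chromosome 7, 131560222 to 131571895), was at 20.1, 20.4 and 19.7 FPKM in pECDCs, 23.2, 22.8 and 26.1 in iECDCs and 14.4, 21.2 and 14.1 in treated cells. The treated values lay below all iECDC values, with treated replicate 2 just above pECDCs and the others below them. For Bub3 the log2 fold change was -0.53 ± 0.17 (SE), adjusted p = 0.0448 (4.41e-10 to 0.168 over 16 alternatives, under 0.05 in 9 of them). Bub1 had -0.37 (adjusted p = 0.0722) and Mad2l1, coding for the checkpoint protein Mad2, had -0.36 (adjusted p = 0.0880), and both passed without treated replicate 2, at -0.52 (adjusted p = 0.00215) and -0.54 (adjusted p = 0.00112). Bub1b and the kinase gene Ttk had log2 fold changes of 0.10 and -0.03.

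None of the 4 genes of the chromosomal passenger complex, which corrects attachments of chromosomes to the spindle, passed with all libraries. Their log2 fold changes ran from -0.46 for Birc5, coding for survivin, to -0.08 for Aurkb, the kinase of the complex. In edgeR 0 of the 4 had an adjusted p under 0.05, and without treated replicate 2 there were 3 lower genes, Birc5, Incenp and Cdca8. Incenp, the scaffold and the most abundant of the 4, was at 41.9, 40.3 and 40.2 FPKM in pECDCs, 47.8, 48.3 and 50.3 in iECDCs and 38.5, 48.03 and 36.9 in treated cells. Treated replicates 1 and 3 were below all other libraries, and treated replicate 2 was within the iECDC range.

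At the centromere and kinetochore, 1 of 7 genes was higher and 6 did not pass. Cenpf, a large protein of the outer kinetochore (chromosome 1, 189640606 to 189688086), was at 5.41, 5.45 and 5.37 FPKM in pECDCs, 5.32, 5.93 and 5.42 in iECDCs and 7.18, 6.58 and 6.94 in treated cells. The treated libraries lay above all others, and treated replicate 2 was the lowest of the 3. The log2 fold change was 0.32 ± 0.10 (SE), adjusted p = 0.0398 (0.000236 to 0.150 over 16 alternatives, under 0.05 in 7 of them). The NDC80 complex, which grips microtubules, gave -0.09 for Ndc80, -0.09 for Nuf2, 0.16 for Spc24 and -0.33 for Spc25. Of these, Spc25 was lower without treated replicate 2 (-0.43 ± 0.10 (SE), adjusted p = 0.00599). Cenpa, the centromeric histone, had -0.21, and the kinesin gene Cenpe -0.06.

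Among the 10 mitotic kinesins and spindle assembly genes, 1 was lower and 9 did not pass. Kif23, the motor of centralspindlin (chromosome 9, 61915905 to 61946774), was at 10.6, 9.99 and 10.04 FPKM in pECDCs, 13.03, 12.8 and 15.3 in iECDCs and 8.49, 11.6 and 8.33 in treated cells. Treated replicates 1 and 3 were the lowest of all libraries, and treated replicate 2 was between pECDCs and iECDCs. The log2 fold change was -0.52 ± 0.15 (SE), adjusted p = 0.0327 (1.08e-08 to 0.131 over 16 alternatives, under 0.05 in 10 of them). Without treated replicate 2, Kif20a, Tpx2, Prc1 and Hmmr also passed as lower, at -0.51, -0.47, -0.46 and -0.37. Kif11, the motor that pushes spindle poles apart, had 0.11, and Nusap1, which bundles spindle microtubules, 0.19. Kif4 and Kif2c had -0.19 and -0.09. Kif20a overlaps Cdc23, and Kif4 overlaps Pdzd11, on the opposite strand.

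Kif20b, a kinesin of late mitosis, had its own pattern, at 9.30, 9.88 and 9.17 FPKM in pECDCs, 9.62, 10.3 and 6.38 in iECDCs and 7.17, 6.50 and 7.70 in treated cells. Here iECDC replicate 3 was the lowest of all 9 libraries and the other iECDC libraries were among the highest. With all libraries the log2 fold change was -0.29 ± 0.18 (SE), adjusted p = 0.250, and without iECDC replicate 3 it was -0.49 ± 0.11 (SE), adjusted p = 0.0253.

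In cytokinesis, none of the 3 genes passed in edgeR with all libraries. Anln, coding for the contractile ring protein anillin and the most abundant of the 3, was at 31.4, 30.2 and 29.2 FPKM in pECDCs, 32.9, 35.8 and 38.5 in iECDCs and 30.2, 38.4 and 28.3 in treated cells. Treated replicate 2 was within the iECDC range, and treated replicates 1 and 3 were below it. Its log2 fold change was -0.13 ± 0.14 (SE), adjusted p = 0.497, against -0.28 for Ect2, the activator of RhoA at the midzone, and -0.09 for Racgap1, the partner of Kif23. Anln and Ect2 were lower without treated replicate 2, at -0.28 ± 0.10 (SE), adjusted p = 0.0443 and -0.40 ± 0.09 (SE), adjusted p = 0.00478.

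Of the 5 genes of the APC/C pathway with securin and separase, 1 was lower and 4 did not pass. Ube2c, the ubiquitin-conjugating enzyme that works with the APC/C (chromosome 2, 164769898 to 164778822), had the largest log2 fold change of the panel in this comparison, at 54.5, 51.8 and 52.8 FPKM in pECDCs, 67.8, 61.3 and 66.05 in iECDCs and 32.9, 50.1 and 33.1 in treated cells. Every treated value was below every other value, with treated replicate 2 just under pECDCs. The fold was 0.599, with a log2 fold change of -0.74 ± 0.17 (SE), adjusted p = 0.0154 (4.21e-13 to 0.0666 over 16 alternatives, under 0.05 in 13 of them). Cdc20 was at 115, 109 and 108 FPKM in pECDCs, 135, 132 and 169.8 in iECDCs and 93.1, 138 and 92.3 in treated cells, with iECDC replicate 3 the highest and treated replicate 2 within the iECDC range. Its log2 fold change was -0.42 ± 0.18 (SE), adjusted p = 0.113, and -0.64 ± 0.12 (SE), adjusted p = 0.00232 without treated replicate 2. Pttg1, coding for securin, had -0.37 with all libraries and -0.55 ± 0.12 (SE), adjusted p = 0.00505 without that replicate. Espl1, coding for separase, had -0.01 (0.016 with upper-quartile scaling), and Fzr1, the APC/C activator of late mitosis and G1, -0.07. Cdc20 overlaps Elovl1 on the opposite strand. Elsewhere in the panel Bub3 overlaps Fgfr2, Cdc25b overlaps Spef1 and Prc1 overlaps Rccd1, each on the opposite strand. Fgfr2, Spef1 and Rccd1 had at most 175, 117 and 155 counts in any library, against at most 3449, 1280 and 3440 for Bub3, Cdc25b and Prc1.

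Neither Top2a nor Mki67 passed between treated cells and iECDCs. Top2a, coding for the topoisomerase that untangles chromosomes, was at 51.02, 49.6 and 48.8 FPKM in pECDCs, 51.1, 54.1 and 58.8 in iECDCs and 57.1, 61.9 and 54.6 in treated cells, and treated replicate 2 was the highest of the 9. Top2a had a log2 fold change of 0.09 ± 0.12 (SE), adjusted p = 0.558. Mki67, coding for the proliferation marker Ki-67, was at 28.6, 28.99 and 27.3 FPKM in pECDCs, 27.5, 31.3 and 36.1 in iECDCs and 36.9, 35.2 and 37.2 in treated cells. The treated libraries lay close together near or above the top of the iECDC range, with a log2 fold change of 0.22 ± 0.13 (SE), adjusted p = 0.227.

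**Figure D4:**
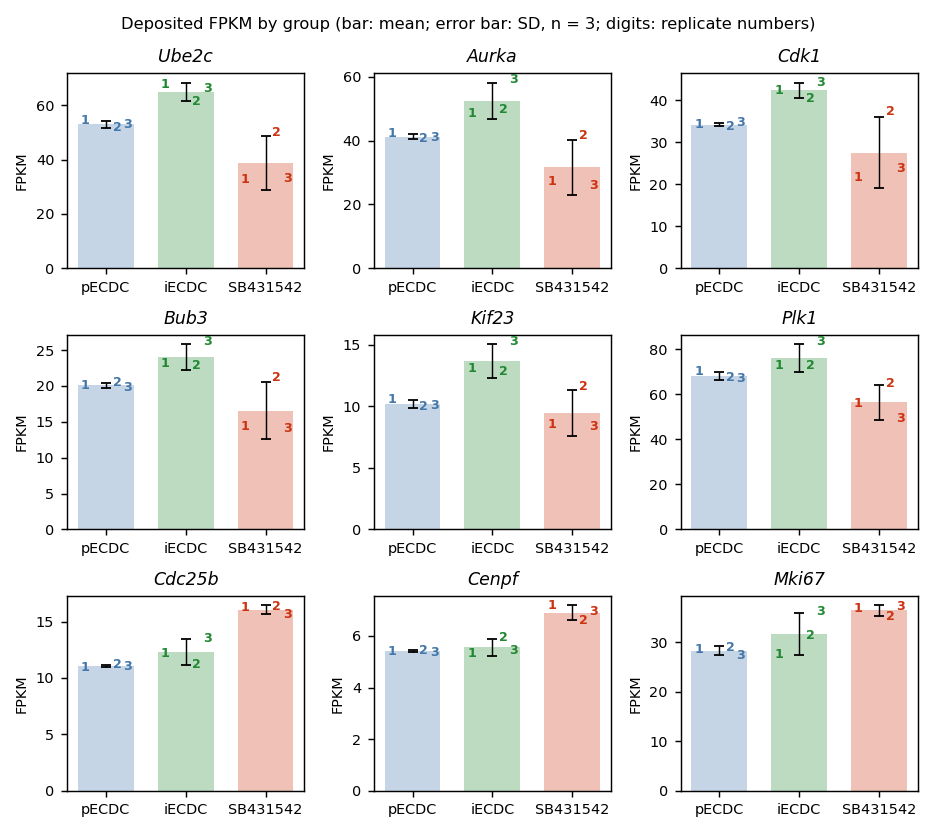
FPKM of the 8 genes that passed between treated cells and iECDCs, and of Mki67, by group. Bars are means, error bars the SD over 3 libraries, and digits the replicate numbers. In the 6 lower genes the digit 2 of the treated group lies above the digits 1 and 3, and in Cdc25b and Cenpf the treated digits lie together above the other groups.

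Further genes of the cell cycle were read from lists written with earlier results of these data known. Of 66 other mitosis genes, 18 were lower in treated cells (27.3%, with 14.0% of all genes lower), with a median log2 fold change of -0.18. The spindle pole gene Aspm was the 1 higher gene (1.52%, with 16.0% of all genes higher). Without treated replicate 2 there were 29 lower genes (43.9%, background 24.8%). The largest were the kinetochore genes Cenpw (-1.04 ± 0.21 (SE), adjusted p = 0.00926) and Ska2 (-0.78 ± 0.18 (SE), adjusted p = 0.0165) and the abscission gene Cep55 (-0.72 ± 0.15 (SE), adjusted p = 0.00988). Cenpw was at 5.15, 4.71 and 4.95 FPKM in pECDCs, 6.23, 4.90 and 4.44 in iECDCs and 2.13, 3.21 and 2.18 in treated cells, so the treated libraries were below all others. Of 13 subunits of the APC/C itself, 1, Anapc16 (-0.67 ± 0.11 (SE), adjusted p = 0.00417), was lower (7.69%, background 14.0%) and none was higher in edgeR. Without treated replicate 2, 3 were lower (23.1%, background 24.8%) and 1 higher (7.69%, background 25.3%). Without iECDC replicate 3 alone the counts were again 3 lower (background 11.9%) and 1 higher (background 13.5%).

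Of 26 G1/S genes, 7 were lower (26.9%, with 14.0% of all genes lower) and none was higher, with a median log2 fold change of -0.36. Without treated replicate 2 there were 21 lower genes (80.8%, background 24.8%), and without iECDC replicate 3 there were 2 (7.69%, background 11.9%). Rrm2, the small subunit of ribonucleotide reductase, was at 84.2, 84.8 and 81.1 FPKM in pECDCs, 111, 114 and 119 in iECDCs and 31.9, 78.7 and 33.5 in treated cells. Treated replicate 2 was near pECDCs, and the other treated libraries were far below. Its log2 fold change was -1.25 ± 0.32 (SE), adjusted p = 0.0228, and the cyclin E genes Ccne1 and Ccne2 had -0.94 ± 0.22 (SE), adjusted p = 0.0158 and -0.88 ± 0.20 (SE), adjusted p = 0.0134.

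Of 20 regulators of G2 and M phase transcription, 2 were higher and 4 lower. Without treated replicate 2, 9 were lower (background 24.8%), and without iECDC replicate 3, 2 were lower (background 11.9%). Rbl2, coding for the pocket protein p130 of the repressive DREAM complex, was at 3.37, 3.22 and 3.24 FPKM in pECDCs, 2.11, 2.60 and 2.27 in iECDCs and 4.58, 3.67 and 4.42 in treated cells. All treated libraries exceeded all others, and all iECDC libraries were below pECDCs. Its log2 fold change was 0.87 ± 0.14 (SE), adjusted p = 0.00407. E2f4, the E2F factor of the same complex, had -0.67 ± 0.11 (SE), adjusted p = 0.00550, and Lin9, a subunit of MuvB, had -0.50 ± 0.12 (SE), adjusted p = 0.0185. Over all tested genes, 16.0% were higher and 14.0% lower in this comparison.

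The comparison of iECDCs with pECDCs asked how the mitotic genes stood after immortalization and long culture. Of the 44 genes, 15 were higher in iECDCs (34.1%), and 0 were lower. Among 13752 genes tested, 16.4% were called, 7.21% higher and 9.21% lower. In edgeR, 23 genes were higher and 0 lower at an unadjusted p under 0.05, by which 15.0% of all genes were higher and 16.5% lower. DESeq2 called 19 higher and 0 lower, with 8.56% of all genes higher and 9.64% lower. The median log2 fold change was 0.20, with 42 values above 0, against 0.00 over all tested genes. In 32 genes every iECDC value exceeded every pECDC value (background 20.7%), and in 1 gene, Ttk, every iECDC value was lower (background 19.2%).

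The count depended on the libraries in the fit. Without iECDC replicate 3 there were 26 higher genes (background 15.5%). Without pECDC replicate 1, 2 or 3, 1 gene, Kif23, passed (background 2.57 to 2.68% higher). At an unadjusted p under 0.05, 20, 20 and 19 genes were then higher (10.4 to 10.9% of all genes). With all 9 libraries in the fit no gene passed (background 1.46% higher), and 13 were higher at an unadjusted p under 0.05 (8.42% of all genes). The sizes were small, with the largest log2 fold change at 0.41.

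By role, all 4 genes of the chromosomal passenger complex were higher, as were 5 of 10 kinesins and spindle assembly genes, 2 of 8 in mitotic entry, 2 of 5 in the spindle checkpoint and 2 of 5 in the APC/C pathway. None passed in edgeR at the kinetochore (7 genes), in cytokinesis (3) or in chromosome structure (2). Without iECDC replicate 3, 5 kinetochore genes and all 3 cytokinesis genes were higher. Kif23 had 0.41 ± 0.08 (SE), adjusted p = 0.00773 (7.76e-05 to 0.107 over 15 alternatives, under 0.05 in 14 of them). Its 3 iECDC values, 13.03, 12.8 and 15.3 FPKM, lay above the pECDC values of 10.6, 9.99 and 10.04.

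Birc5 was at 25.3, 24.7 and 26.2 FPKM in pECDCs, 31.8, 29.5 and 36.7 in iECDCs and 20.2, 29.6 and 20.97 in treated cells. The iECDC libraries were above all others except that treated replicate 2 was level with iECDC replicate 2. Its log2 fold change between iECDCs and pECDCs was 0.35 ± 0.08 (SE), adjusted p = 0.0219, against 0.24 for Incenp, 0.28 for Cdca8 and 0.26 for Aurkb. Cdca8, coding for borealin, overlaps 9930104L06Rik on the opposite strand.

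Tpx2, which activates Aurka on the spindle, was at 48.3, 48.7 and 47.8 FPKM in pECDCs, 56.9, 58.3 and 64.4 in iECDCs and 43.8, 52.7 and 42.2 in treated cells. The iECDC and pECDC libraries did not overlap, with a log2 fold change of 0.30 ± 0.06 (SE), adjusted p = 0.0151. Kif4, a chromosome-bound kinesin, had 0.36 ± 0.08 (SE), adjusted p = 0.0162, Kif2c, a microtubule depolymerase, 0.34 ± 0.08 (SE), adjusted p = 0.0210, and Prc1, which crosslinks midzone microtubules, 0.33 ± 0.08 (SE), adjusted p = 0.0215. Adjusted p-values of these 4 genes were under 0.05 in 11 of 15 alternatives each.

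The genes that were lower in treated cells had these values between iECDCs and pECDCs, in a comparison that shares the iECDC libraries with the previous one. Cdk1 had 0.29 ± 0.06 (SE), adjusted p = 0.0107, Aurka 0.33 ± 0.08 (SE), adjusted p = 0.0228 and Ube2c 0.28 ± 0.06 (SE), adjusted p = 0.0172. Bub3 had 0.25 ± 0.07 (SE), adjusted p = 0.0393 and Plk1, which did not pass, 0.15 ± 0.07 (SE), adjusted p = 0.186. Cdc25b and Cenpf, higher in treated cells, had 0.14 ± 0.08 (SE), adjusted p = 0.269 and 0.03 ± 0.06 (SE), adjusted p = 0.818. Cdc20 and Mad2l1 were also higher in iECDCs, at 0.38 ± 0.10 (SE), adjusted p = 0.0273 and 0.25 ± 0.06 (SE), adjusted p = 0.0190.

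**Figure D5:**
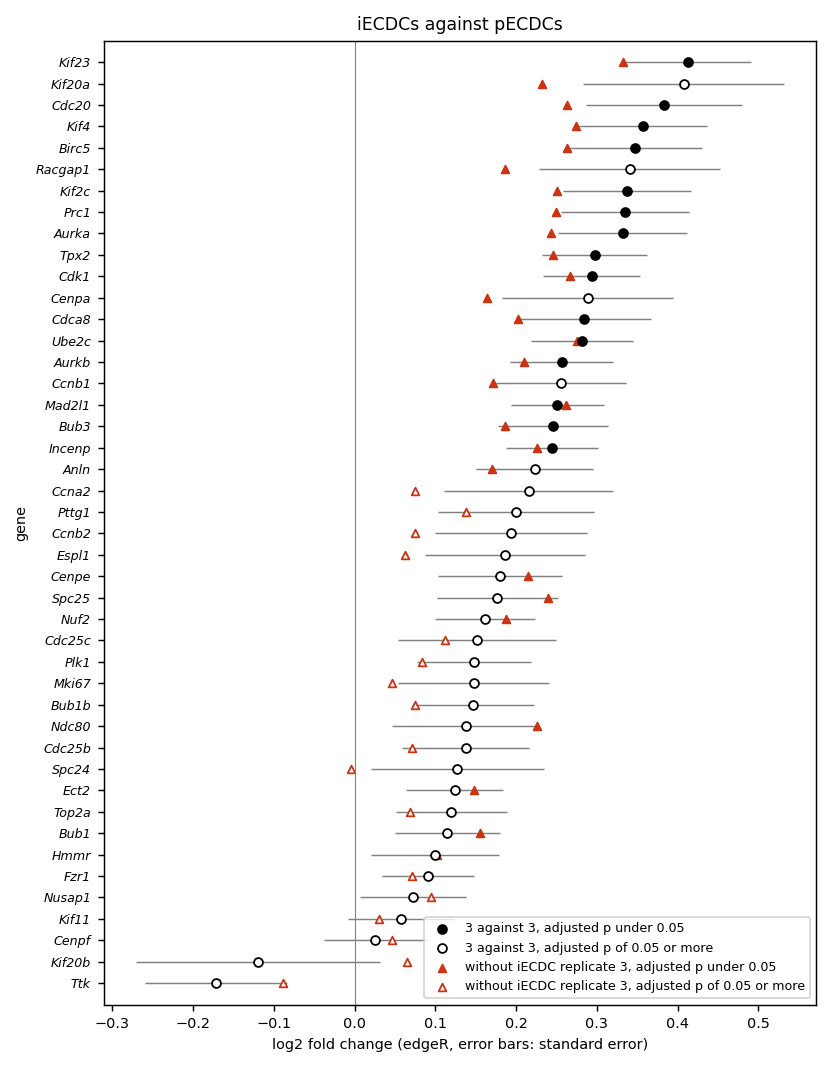
Log2 fold change of iECDCs against pECDCs for each of the 44 genes, from edgeR, sorted by size. Circles with error bars (standard error) are 3 against 3 libraries and triangles are without iECDC replicate 3, filled where the adjusted p was under 0.05. Of the circles 15 are filled and of the triangles 26, and 42 circles lie above 0.

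Outside the panel, 15 of 26 G1/S genes were higher in iECDCs (57.7%, with 7.21% of all genes higher) and none lower, with a median log2 fold change of 0.33. Of 66 other mitosis genes 6 were higher (9.09%) and none lower, with a median of 0.13. Without iECDC replicate 3 these counts were 25 of 26 and 24 of 66 (background 15.5%). Of 13 APC/C subunits 1 was lower (background 9.21%), or 3 without that replicate (background 16.2%). Of 20 regulators 4 were higher, or 7 without iECDC replicate 3, and 1, Rbl2 (-0.51 ± 0.09 (SE), adjusted p = 0.00690), was lower.

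Between treated cells and pECDCs, hTERT, passage and treatment all differed if the labels hold, and then cannot be told apart. Of the 44 genes, 4 were higher and 1 was lower. Among 14015 genes tested, 34.8% were called, 17.9% higher and 17.0% lower, so that both shares of the panel (9.09% and 2.27%) were below those of all genes. The higher genes were Cdc25b (0.55 ± 0.06 (SE), adjusted p = 0.00134), Mki67 (0.37 ± 0.07 (SE), adjusted p = 0.00749), Cenpf (0.36 ± 0.07 (SE), adjusted p = 0.00646) and Nusap1 (0.27 ± 0.07 (SE), adjusted p = 0.0191). Nusap1 was at 10.2, 11.00 and 10.5 FPKM in pECDCs, 11.6, 11.1 and 10.97 in iECDCs and 12.4, 12.7 and 12.9 in treated cells, and the treated values lay above all others. The lower gene was Kif20b (-0.40 ± 0.09 (SE), adjusted p = 0.0119). With the alternative that set a minimum on the fold left out, Cdc25b and Cenpf passed in each of 15 alternatives, Mki67 in 14, Kif20b in 13 and Nusap1 in 9.

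Treated replicate 2 also set this count. Without it 13 genes were higher (background 31.7%) and 21 lower (background 32.3%, or 64.1% in either direction), and the median log2 fold change over the panel went from 0.05 to -0.07. Ube2c was then at -0.68 ± 0.05 (SE), adjusted p = 2.64e-10, Aurka at -0.62 ± 0.05 (SE), adjusted p = 1.62e-09 and Cdk1 at -0.59 ± 0.05 (SE), adjusted p = 3.99e-09, against -0.45 ± 0.16 (SE), adjusted p = 0.0687, -0.37 ± 0.17 (SE), adjusted p = 0.128 and -0.31 ± 0.19 (SE), adjusted p = 0.248 with all libraries. Without pECDC replicate 2, Kif20b no longer passed (background 8.53% lower), and without pECDC replicate 3 the higher genes were Cenpf and Cdc25b (background 8.73%). In 15 genes every treated value exceeded every pECDC value (background 25.1%), and in 4 every treated value was lower (background 26.4%).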

How the data were processed

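RNA sequencing of 9 libraries, 3 per group as given by the sample labels, was analysed. The deposited table holds raw counts of reads per gene and the authors' FPKM values, which divide the count by gene length and a library size. That size was not the total count, and ran from 0.928 of it in iECDC replicate 3 to 1.05 in treated replicate 3. Their fold changes and p-values in the same table were not used. The submitters' processing notes name TopHat2 2.0.9, Bowtie2 2.0.6 and mm9. The coordinates in the table are those of GRCm38, where 53462 of 54409 shared genes matched GENCODE M21. The counting program and its strand setting are not given in the sources used here. Total counts were 16568306 to 23951392.

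Counts were tested in edgeR 4.0.16 (R 4.3.3) with TMM, filterByExpr (minimum count 10, total 15), the quasi-likelihood test and Benjamini-Hochberg adjustment over all tested genes, with the compared groups only in the fit, and were first tested on simulated data. A call is an adjusted p under 0.05. Standard errors of edgeR fold changes were worked back from that test, as the size of the log2 fold change over the square root of its F statistic. DESeq2 1.42.0, limma 3.58.1 on log2(FPKM + 1) or log2(FPKM + 0.1), other scalings and filters, a fold minimum, a replicate block and each library left out were alternatives. The genes and lists were chosen with earlier results of these data known. In each role the 2 largest changes that passed, or else the most abundant gene, are given for every library, with genes that differ between comparisons, and from other lists at most the 3 largest. Promoter letters came from RefSeq on GRCm38.p6. Figures used python 3.11.15 and matplotlib 3.10.9.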

Additional observations from a re-analysis of the deposited data

How the results depend on the processing

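Between treated cells and iECDCs there were 6 lower and 2 higher genes, of 4061 called among all genes. With all 9 libraries in the fit they became 15 lower (background 20.3%) and 2 higher (background 20.9%), of 5850. Without both libraries that stood apart they became 24 lower (background 31.9%) and 4 higher (background 32.6%), of 8951. Higher genes numbered 1 with no filter on low counts (background 10.2%) and with limma at either pseudocount (background 13.3 to 13.4%). They numbered 0, of 3287 called among all genes, with a log2 fold change of at least 0.5. Leaving out 1 library gave 0 to 21 lower (background 5.13 to 24.8%), 0 to 2 higher (background 7.07 to 25.3%) and 1707 to 7001 called genes. Between iECDCs and pECDCs the 15 higher genes, of 2258 called, became 0 (of 671, background 1.46%) with all 9 libraries. With a log2 fold change of at least 0.5 they became 0 (of 1143). Leaving out 1 library gave 1 to 26 higher (background 2.57 to 15.5%), 0 lower (background 4.82 to 16.2%) and 1036 to 4467 called genes. Between treated cells and pECDCs the 4 higher and 1 lower genes became 5 higher (background 19.2%) and 2 lower (background 17.8%) with DESeq2. With no filter they became 3 higher (background 9.56%) and 2 lower (background 9.82%). With that fold minimum they became 1 higher and 0 lower, of 3098 against 4881 called. Leaving out 1 library gave 2 to 13 higher (background 8.64 to 31.7%), 0 to 21 lower (background 8.45 to 32.3%) and 2453 to 9188 called genes. The cause was not tested, except that the fold minimum drops smaller changes by construction.

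With the replicate number as a block, 3 genes (Cdk1, Ube2c and Aurka) were lower between treated cells and iECDCs (6.82%, background 10.3%) and 0 higher (background 12.1%). At an unadjusted p under 0.05 in edgeR, 2 were higher (background 19.1%) and 11 lower (background 17.9%). Between iECDCs and pECDCs 10 were higher (22.7%, background 5.25%). Between treated cells and pECDCs 3 were higher (6.82%, background 13.9%) and 1 lower (2.27%, background 13.8%). No pairing by number is described in the sources used here. Same-numbered treated and iECDC libraries had correlations of deviations of 0.02, -0.17 and -0.24, and not every library correlated best with its own number. These are deviations from group means in which treated replicate 2 and iECDC replicate 3 stood apart, so they cannot decide whether libraries were paired.

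No gene whose value changed sign had passed the test. Between treated cells and iECDCs upper-quartile scaling gave 0.016 for Espl1 and 0.0048 for Ttk. With 1 library left out the ranges were -0.087 to 0.16 for Ccnb2, -0.11 to 0.00024 for Cenpe, -0.12 to 0.033 for Ttk, -0.20 to 0.059 for Racgap1, -0.15 to 0.078 for Ccna2, -0.18 to 0.10 for Espl1 and -0.00073 to 0.16 for Bub1b. Between iECDCs and pECDCs they were -0.021 to 0.058 for Cenpf, -0.25 to 0.065 for Kif20b and -0.0048 to 0.21 for Spc24. Between treated cells and pECDCs 12 of the 44 genes changed sign with 1 library left out, 5 of them without treated replicate 2, among them Kif20a, from 0.15 to -0.09. The directions of the other genes of the panel held in all alternatives run in each comparison.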
